A study of Mus musculus with 8 samples.

Results

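*Aak1*, *Gprin3*, *Atad2b* and *Exph5* are 4 protein-coding genes with long transcripts that were chosen for their large falls in livers labelled *Srsf10-kd*, with every *Srsf10-kd* liver below every *Ctrl* liver. They are 4 of the 15491 genes tested, from a table of 45706 gene identifiers. They were selected on their counts in these same 8 livers, so their differences between the groups are given below as a description, with no test, and nothing is read from the fact that the groups are separate. No cut-off was stated for the choice.

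The series holds poly(A)-selected RNA-seq of whole liver from mice of the strain labelled C56B6/J, with 4 libraries of the genotype labelled Srsf10KD and 4 labelled WT. The mice were males that were given an adeno-associated virus (AAV, serotype 2/8) at 6 weeks of age and from 4 weeks later received a diet with 60% of its calories from fat, for 12 weeks. All 8 livers therefore shared the virus, the diet and a short hairpin RNA in a microRNA backbone (mirE), directed at *Srsf10* in the *Srsf10-kd* group and a control hairpin in the *Ctrl* group. The hairpin and GFP were driven by the chicken β-actin promoter, which is not specific to hepatocytes, so the vector may act in any cell that the virus enters. The samples are labelled as separate livers, and p-values measure the spread between these samples.

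The targeted transcript did not follow the labels. *Srsf10*, which encodes an SR-family splicing factor, was measured at 34 to 41 CPM (counts scaled to library size and TMM-normalized) in the libraries of the knockdown label, against 30.9 to 35.3 CPM in *Ctrl* livers, a log2 fold change of 0.15 (SE 0.10; edgeR quasi-likelihood test, adjusted p = 0.378), so the transcript was not lower in the libraries labelled as knockdown. Below, *Srsf10-kd* livers are the livers so labelled, and every direction rests on those labels. The libraries held 50456404 to 59697241 counts each, and no pair of libraries agreed within sampling noise. The 10 hepatocyte markers summed to 1.07e+05 to 1.25e+05 CPM in the *Srsf10-kd* livers and to 8.95e+04 to 1.16e+05 CPM in the *Ctrl* livers, and none of the markers of any cell type was at 0 in all livers. *Ctrl* 3 was the lowest *Ctrl* liver and *Srsf10-kd* 3 the lowest *Srsf10-kd* liver in the slope of counts on transcript length. Neither was flagged as far from its group by the rule given at the end. Values without both are given below as a description.

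The 4 proteins work in different places. AAK1 is a serine/threonine kinase of clathrin-coated pits that phosphorylates the medium chain of the AP-2 adaptor and so strengthens its hold on cargo. GPRIN3 belongs to a small family of proteins that bind activated G protein alpha subunits of the Gi/o class, known mainly from neurons. ATAD2B is a nuclear AAA+ ATPase with a bromodomain, a fold that binds acetylated lysines of histones, and EXPH5 (exophilin-5, also called Slac2-b) is an effector of the small GTPase RAB27, which directs vesicles to the plasma membrane. SRSF10 is known for its part in splicing and was studied here for its part in the choice of polyadenylation sites, which sets where a transcript ends and hence its length.

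Long transcripts were the first feature the genes shared. In the GENCODE M21 annotation of GRCm38, *Aak1* (ENSMUSG00000057230, chr6:86849517-87003223, plus strand) has a longest coding transcript of 19341 bases in 21 exons, of which 15925 bases are 3′ untranslated region. *Gprin3* (ENSMUSG00000045441, chr6:59347226-59426294, minus strand) has a transcript of 8339 bases in 2 exons, with 5803 bases of 3′ untranslated region. *Atad2b* (ENSMUSG00000052812, chr12:4917353-5047394, plus strand) has 8035 bases in 31 exons, with 4383 coding bases and a 3′ untranslated region of 3347 bases. *Exph5* (ENSMUSG00000034584, chr9:53301670-53377514, plus strand) has 5957 bases in 6 exons, nearly all of it coding at 5883 bases. The median over the 13396 protein-coding genes tested was 3078 bases, and the 4 genes stood at the 99.9th, 95.5th, 94.9th and 86.7th percentile in the order given. The label of long-transcript genes thus held for each of them by the annotation, though in this annotation the length came from different parts of the transcript: untranslated sequence in *Aak1* and *Gprin3*, coding sequence in *Exph5* and both in *Atad2b*.

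**Figure D1:**
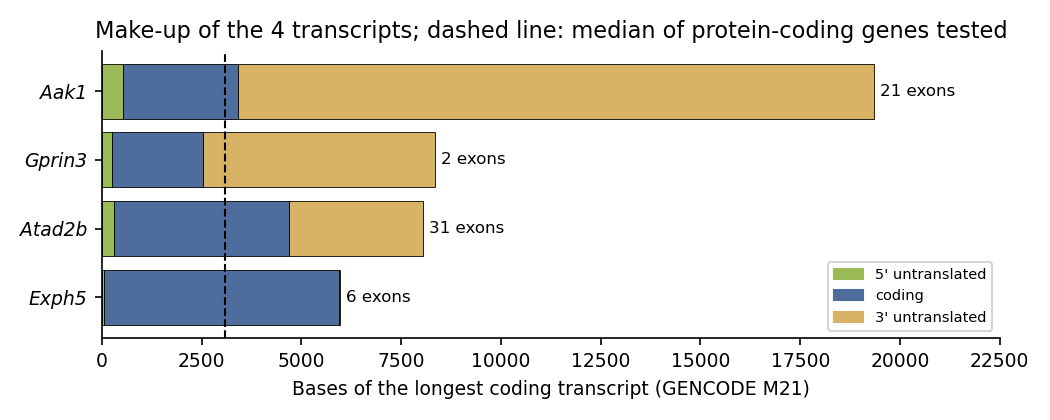
Bars show the longest coding transcript of each gene in bases, split into 5′ untranslated, coding and 3′ untranslated sequence, with the number of exons at the end; the dashed line is the median transcript of the protein-coding genes tested, 3078 bases. *Aak1* is 19341 bases long, mostly 3′ untranslated, while *Exph5* is 5957 bases long and nearly all coding.

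Introns, base composition and level differed less uniformly. The longest intron was 74798 bases in *Aak1*, 70730 bases in *Gprin3*, 35980 bases in *Exph5* and 19465 bases in *Atad2b*, against a median of 6779 bases. The GC content of the exons was below the median of 50.1% in all 4 genes, from 41.7% in *Gprin3* to 47.6% in *Exph5*. All 4 were weakly expressed, between the 20.7th percentile of protein-coding genes for *Aak1* and the 37.7th for *Exph5* by mean log2 CPM. Their exons overlapped those of no other gene, and of the 75-base stretches of their exons, 0 of 21844 in *Aak1*, 0 of 8265 in *Gprin3*, 16 of 15249 in *Atad2b* and 56 of 10442 in *Exph5* recurred in transcripts of another gene, so few reads could be shared with a copy.

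Since the 3′ end is where a polyadenylated transcript is cleaved, the last 30 bases of the annotated transcript are shown for the genes in which a polyadenylation signal (AATAAA or ATTAAA, in capitals) was found within 50 bases of the end, on the strand of the transcript.
Aak1: cctatactctttATTAAAatgaacctaatt
Atad2b: gtgaaatacttgAATAAAgatgataagaag
In both, the signal began 20 bases before the annotated end. The *Gprin3* and *Exph5* models held neither hexamer in their last 50 bases, and the RefSeq gene (GRCm38.p6) extended past the GENCODE end by 2726 bases for *Gprin3* and by 3652 bases for *Exph5*, against 4 bases for *Aak1* and 2 bases for *Atad2b*. Within the annotated 3′ untranslated regions AATAAA occurred 11 times in *Aak1*, 5 times in *Gprin3*, 4 times in *Atad2b* and 0 times in the 11 bases of *Exph5*. *Aak1* also has a shorter annotated coding transcript of 7203 bases. The counts are sums per gene and do not tell these ends apart.

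Because the 4 genes were lower together, their promoters (300 bases around the transcription start, RefSeq on GRCm38.p6) are shown to see which common promoter elements they hold. The letters in capitals are matches, on either strand, to the GC box GGGCGG, the CCAAT box CCAAT, the E-box CACGTG or the cAMP response element TGACGTCA, and matches may overlap.
Aak1, chr6:86849255-86849554, plus strand: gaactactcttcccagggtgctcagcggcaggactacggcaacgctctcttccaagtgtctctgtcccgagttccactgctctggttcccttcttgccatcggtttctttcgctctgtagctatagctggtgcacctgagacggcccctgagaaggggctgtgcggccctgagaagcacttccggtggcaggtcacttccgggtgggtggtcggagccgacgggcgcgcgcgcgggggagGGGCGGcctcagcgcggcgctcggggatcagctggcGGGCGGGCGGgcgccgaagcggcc
Gprin3, chr6:59426257-59426556, minus strand: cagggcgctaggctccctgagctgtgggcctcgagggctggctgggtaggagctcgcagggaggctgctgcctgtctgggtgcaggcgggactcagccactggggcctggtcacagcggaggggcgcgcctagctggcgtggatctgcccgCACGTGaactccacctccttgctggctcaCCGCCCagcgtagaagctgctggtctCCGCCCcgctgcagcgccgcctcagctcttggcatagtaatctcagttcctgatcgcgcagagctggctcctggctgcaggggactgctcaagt
Atad2b, chr12:4917103-4917402, plus strand: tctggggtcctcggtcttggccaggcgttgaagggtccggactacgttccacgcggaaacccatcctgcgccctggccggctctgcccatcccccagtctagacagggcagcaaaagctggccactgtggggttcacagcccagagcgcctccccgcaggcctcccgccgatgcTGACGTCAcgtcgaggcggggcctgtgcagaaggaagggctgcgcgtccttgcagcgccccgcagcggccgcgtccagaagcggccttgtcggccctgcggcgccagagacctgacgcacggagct
Exph5, chr9:53301420-53301719, plus strand: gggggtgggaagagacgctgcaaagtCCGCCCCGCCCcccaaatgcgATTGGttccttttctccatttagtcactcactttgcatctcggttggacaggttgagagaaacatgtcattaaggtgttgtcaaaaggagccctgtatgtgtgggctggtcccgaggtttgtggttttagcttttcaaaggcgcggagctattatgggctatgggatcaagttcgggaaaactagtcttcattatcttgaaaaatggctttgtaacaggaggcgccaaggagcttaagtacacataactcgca
No searched element was common to the 4 windows. The GC box occurred 3 times in *Aak1*, 2 times in *Gprin3* and 2 times in *Exph5*, and 35.7% of 32851 mouse promoters of the same length hold it. The E-box was found once in *Gprin3* (7.15% of promoters), the cAMP response element once in *Atad2b* (1.79%) and the CCAAT box once in *Exph5* (37.4%). The TATA box TATAAA (13.6%) and the direct-repeat nuclear receptor element DR1 (0.0396%) were in none of the windows. The *Aak1*, *Gprin3* and *Atad2b* windows were rich in GC at 67.7%, 67.7% and 69.7%, against a median of 52.7%, and *Exph5* was at 48.7%. The window of another annotated start of *Aak1*, just upstream, held none of these elements. The RefSeq gene begins further upstream for *Atad2b* (chr12:4914404) and *Exph5* (chr9:53301514), and no windows were drawn around those starts.

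*Aak1* lay at 1.12, 0.961, 1.05 and 0.855 CPM in *Srsf10-kd* livers 1 to 4 and at 3.61, 3.58, 2.45 and 4.18 CPM in *Ctrl* livers 1 to 4. The 4 *Srsf10-kd* livers were close to each other, while *Ctrl* 3 was the lowest of the *Ctrl* livers and still above all *Srsf10-kd* livers. The means were 0.996 ± 0.113 and 3.45 ± 0.726 CPM (SD, n = 4 each), a ratio of *Ctrl* to *Srsf10-kd* of 3.47 and a log2 fold change of -1.79 (SE 0.19). These values rest on 48 to 238 counts per liver, the fewest of the 4 genes. AAK1 acts at the first step of receptor uptake, and its transcript was at 0.179 CPM per kilobase in the *Ctrl* livers and 0.0515 in the *Srsf10-kd* livers over its longest model, or 0.480 and 0.138 if the 7203-base transcript is taken as the length.

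*Gprin3*, the Gi/o-binding gene, lay at 1.92, 1.86, 1.61 and 2.23 CPM in *Srsf10-kd* livers 1 to 4. In *Ctrl* livers 1 to 4 it lay at 4.97, 7.23, 8.71 and 5.18 CPM. The *Srsf10-kd* livers were again tight, and here *Ctrl* 3 was the highest *Ctrl* liver, the reverse of its place in the other 3 genes. The means were 1.91 ± 0.252 and 6.52 ± 1.78 CPM (SD, n = 4 each), a ratio of 3.42 and a log2 fold change of -1.77 (SE 0.21). Per kilobase the level was 0.782 CPM in the *Ctrl* livers and 0.229 in the *Srsf10-kd* livers, or 0.589 and 0.172 with the transcript run to the RefSeq end (11065 bases).

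*Atad2b*, the bromodomain ATPase gene, lay at 3.89, 3.71, 2.24 and 3.35 CPM in *Srsf10-kd* livers 1 to 4 and at 8.51, 10.2, 8.33 and 10.3 CPM in *Ctrl* livers 1 to 4. *Srsf10-kd* 3 was the lowest liver of all, and the *Ctrl* livers varied little. The means were 3.30 ± 0.741 and 9.34 ± 1.06 CPM (SD, n = 4 each), a ratio of 2.83 and a log2 fold change of -1.50 (SE 0.18). Per kilobase the level was 1.16 CPM in the *Ctrl* livers and 0.410 in the *Srsf10-kd* livers.

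*Exph5*, the RAB27 effector gene, lay at 4.81, 5.30, 3.58 and 3.33 CPM in *Srsf10-kd* livers 1 to 4. In *Ctrl* livers 1 to 4 it lay at 10.4, 12.3, 9.89 and 12.5 CPM. *Srsf10-kd* livers 3 and 4 were below *Srsf10-kd* livers 1 and 2, and *Ctrl* 3 was the lowest *Ctrl* liver. The means were 4.26 ± 0.952 and 11.3 ± 1.35 CPM (SD, n = 4 each), a ratio of 2.65 and a log2 fold change of -1.40 (SE 0.17). Per kilobase of the GENCODE transcript the level was 1.89 CPM in the *Ctrl* livers and 0.715 in the *Srsf10-kd* livers, and with the transcript run to the RefSeq end (9609 bases) it was 1.17 and 0.443. The values rest on 184 to 753 counts per liver.

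**Figure D2:**
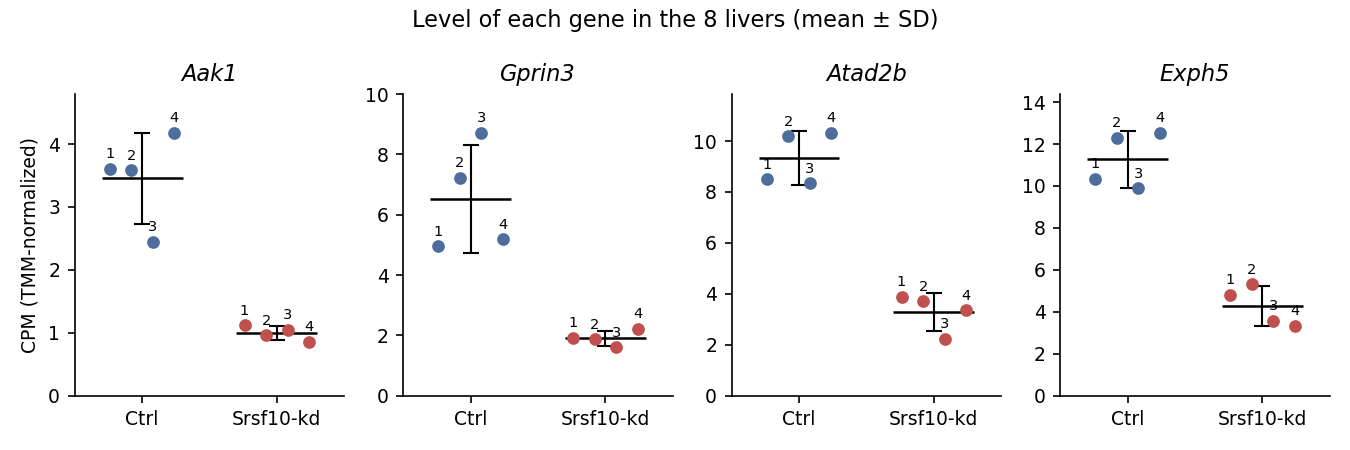
Each panel shows 1 gene in CPM on a linear axis from 0; points are livers with their replicate number (*Ctrl* blue, *Srsf10-kd* red), and the black line and bar are the mean and SD of 4 livers. The groups are separate in each panel, by which the genes were chosen, and *Ctrl* 3 is the lowest *Ctrl* liver in 3 panels and the highest for *Gprin3*.

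On the GENCODE lengths the order of the levels per kilobase was *Exph5*, *Atad2b*, *Gprin3*, *Aak1* in both groups, and with the RefSeq end of *Exph5* it stood level with *Atad2b*, at 1.17 against 1.16 CPM per kilobase in the *Ctrl* livers. On the longest GENCODE models *Gprin3* ranged in the *Ctrl* livers from 0.595 to 1.04 CPM per kilobase and *Atad2b* from 1.04 to 1.28. These neighbours met at their edges, whereas *Aak1* reached only 0.216 and *Exph5* began at 1.66. The distances depend on the length taken. The *Ctrl* mean was 0.480 for *Aak1* at 7203 bases and 0.589 for *Gprin3* run to the RefSeq end. The narrowest distance between the groups, the lowest *Ctrl* liver over the highest *Srsf10-kd* liver, was 2.19-fold for *Aak1*, 2.23-fold for *Gprin3*, 2.14-fold for *Atad2b* and 1.86-fold for *Exph5*. In whole liver, fewer cells of a type and less RNA per cell cannot be told apart.

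Across all genes, 11 of 15491 passed an adjusted p of 0.05 in the edgeR quasi-likelihood test (0.0710%), all 11 lower in the *Srsf10-kd* livers, and the groups were separate with *Srsf10-kd* lower in 1167 genes (7.53%). All 4 genes were in both sets, as their selection on this contrast implies, and nothing is read from it. The count of 11 depended on single livers: without *Srsf10-kd* 1, 2 or 4, or without *Ctrl* 2, 0 genes passed in edgeR, although 3450, 3656, 2768 and 2154 genes had an unadjusted p under 0.05, and without *Ctrl* 3 the number was 544. The log2 fold changes of the 4 genes themselves moved little when 1 liver was left out, between -1.93 and -1.69 for *Aak1*, -1.88 and -1.60 for *Gprin3*, -1.59 and -1.35 for *Atad2b* and -1.53 and -1.30 for *Exph5*. Without both *Ctrl* 3 and *Srsf10-kd* 3 they were -1.95, -1.53, -1.41 and -1.39 in the same order.

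Transcript length moved with the group throughout the data. Among protein-coding genes other than the 4, the median log2 fold change fell from 0.43 for transcripts of up to 1000 bases (729 genes, 4.53% of them lower) through 0.04 at 2000 to 3000 bases (2974 genes, 43.7% lower) to -0.33 at 8000 to 10000 bases (400 genes, 84.0% lower), and was -0.34 above 15000 bases (48 genes). The median was lower with long coding than with long untranslated sequence: the 555 genes with at least 5000 coding bases had a median of -0.41, and the 544 genes with a 3′ untranslated region of at least 5000 bases a median of -0.20, as descriptions with no test between them. The length of the longest intron moved the median by little among transcripts of 5000 to 10000 bases, with medians of -0.25 below 20000 bases, -0.28 from 20000 to 50000 and -0.24 above 50000. The 4 genes, chosen for their falls, lay below all of these medians.

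**Figure D3:**
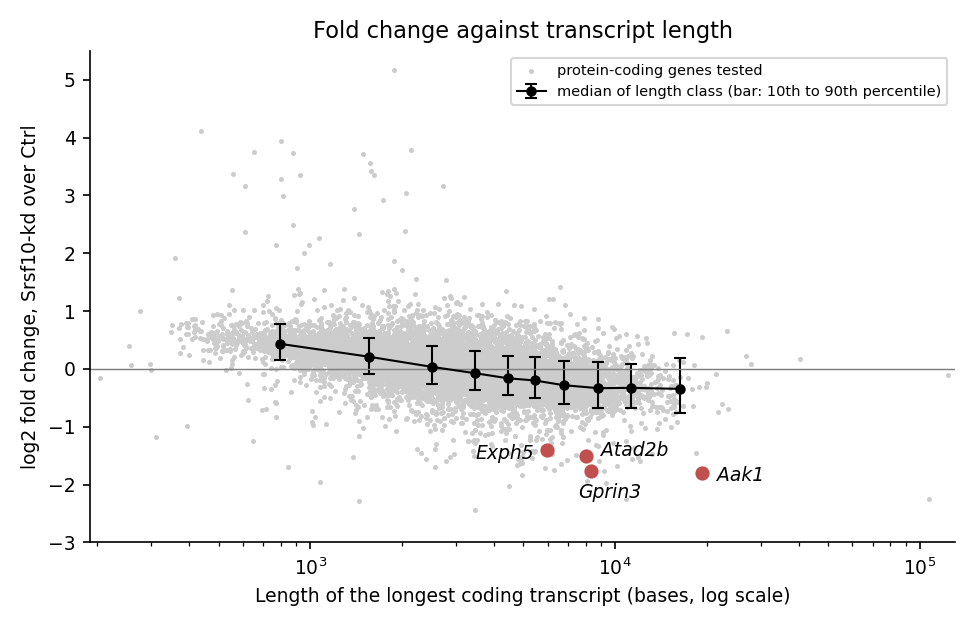
The horizontal axis is the length of the longest coding transcript in bases (log scale) and the vertical axis the log2 fold change of *Srsf10-kd* over *Ctrl*; grey points are the other protein-coding genes tested, black points the median of each length class at its median length with a bar from the 10th to the 90th percentile, and red points the 4 genes. The medians fall from 0.43 to -0.34 with length. The 4 genes, chosen for their falls, are at -1.40 to -1.79 and lie below the 10th percentile of every class.

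Genes of similar transcript length, within 1.2-fold, gave the nearest comparison. Around *Aak1* there were 18 such genes and their median log2 fold change was -0.27; none was as low as *Aak1*. The lowest were *Slc8a1* (-1.46, SE 0.43, adjusted p = 0.136, at under 1 CPM), *Syne2* (-0.74, adjusted p = 0.195) and *Rnf213* (-0.64, adjusted p = 0.240) by the edgeR quasi-likelihood test. *Slc8a1* encodes a sodium-calcium exchanger and *Syne2* a giant protein of the nuclear envelope. None of the 3 passed the test and the groups overlapped in each. No window was drawn around the 7203-base transcript of *Aak1*. *Lmbrd2*, with a transcript of 8099 bases, is within 1.2-fold of that length and was lower than *Aak1*, at -1.95. The absence of a gene as low as *Aak1* thus depends on the length taken.

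Around *Gprin3* there were 834 genes with a median of -0.32, and 2 were as low or lower. By the same edgeR test these were *Naaladl2* (-1.97, adjusted p = 0.120) and *Lmbrd2* (-1.95, adjusted p = 0.0935). *Naaladl2* was weakly expressed, at 0.188 ± 0.0823 CPM in the *Srsf10-kd* livers and 0.747 ± 0.457 in the *Ctrl* livers (SD, n = 4 each). *Lmbrd2* lay at 7.69 ± 3.81 CPM in the *Srsf10-kd* livers and 29.7 ± 6.47 in the *Ctrl* livers (SD, n = 4 each). Its SDs in CPM were larger than those of *Gprin3*, at higher means. *Tnks*, which encodes the poly-ADP-ribosyltransferase tankyrase, came next at -1.76 (adjusted p = 0.0948). The groups were separate in each of these 3 genes too.

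Around *Atad2b* 922 genes had a median of -0.32 and 6 were as low or lower, 5 of them with separate groups. The lowest of these were *Naaladl2*, at the low level given above, *Lmbrd2* and *Gprin3*. Around *Exph5* 1771 genes had a median of -0.23 and 10 were as low or lower, 8 of them with separate groups. With the length run to the RefSeq end (9609 bases) there were 542 genes with a median of -0.33, and 9 were as low or lower. In the window of the GENCODE length the lowest were *Irs2*, an adaptor of the insulin receptor, at -1.75 (edgeR adjusted p = 0.0826), *Klf12*, a zinc-finger repressor, at -1.71 (adjusted p = 0.116) and *Wdfy2*, a protein of early endosomes, at -1.64 (adjusted p = 0.0822).

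*Aak1*, *Gprin3*, *Atad2b* and *Exph5* were chosen for large falls in these same livers. Their low place among genes of similar length follows from that choice, and nothing is read from it. Genes as low or lower were found in the windows of *Gprin3*, *Atad2b* and *Exph5*, and none in that of *Aak1*. The part of transcript length in the falls was not tested by these counts. The share of genes with separate groups and *Srsf10-kd* lower was 20.9% in the *Gprin3* window, 20.1% in the *Atad2b* window and 17.7% in the *Exph5* window, above the 7.53% of all genes, and 5.56% in the *Aak1* window. When the windows were held to genes within 1 log2 unit of the member's level as well, 0 of 2, 0 of 123, 3 of 197 and 5 of 475 genes were as low as *Aak1*, *Gprin3*, *Atad2b* and *Exph5*.

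The dependence on length could be measured liver by liver. The slope of log2 CPM on log2 transcript length over 15425 other genes, relative to the mean of the 8 livers, was -0.02, -0.02, -0.19 and -0.07 in *Srsf10-kd* livers 1 to 4 and 0.09, 0.10, -0.03 and 0.14 in *Ctrl* livers 1 to 4. Long transcripts were therefore relatively low in *Srsf10-kd* 3 and relatively high in *Ctrl* 1, 2 and 4, and *Ctrl* 3 had a slope like that of *Srsf10-kd* 1 and 2. Between these 3 livers, in which the choice of genes fixes *Ctrl* 3 as the higher, *Ctrl* 3 over *Srsf10-kd* 1 and over *Srsf10-kd* 2 was 2.19 and 2.55 for *Aak1*, 4.54 and 4.67 for *Gprin3*, 2.14 and 2.25 for *Atad2b*, and 2.05 and 1.86 for *Exph5*.

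With the length trend of each liver removed, the log2 fold changes were -1.32 for *Aak1*, -1.52 for *Gprin3*, -1.22 for *Atad2b* and -1.19 for *Exph5*. That of *Aak1* was taken at its 19341-base model. The genes were chosen on separate groups, and the lowest *Ctrl* liver was above the highest *Srsf10-kd* liver by 0.95, 0.76, 0.87 and 0.79 on the log2 scale. *Ctrl* 3, the lowest *Ctrl* liver for *Aak1* and *Atad2b* as measured, became the highest for both, at 1.60 and 3.17 log2 CPM. For *Aak1* the next, *Ctrl* 4, was close to it at 1.59. For *Exph5*, *Ctrl* 3 was also the lowest as measured and then lay at 3.37, below *Ctrl* 2 and 4 at 3.45 and 3.44. For *Gprin3* it was further above the others than before, at 3.24 against 2.09 to 2.62. The part of the length trend in the falls of the 4 genes was not tested beyond these values.

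**Figure D4:**
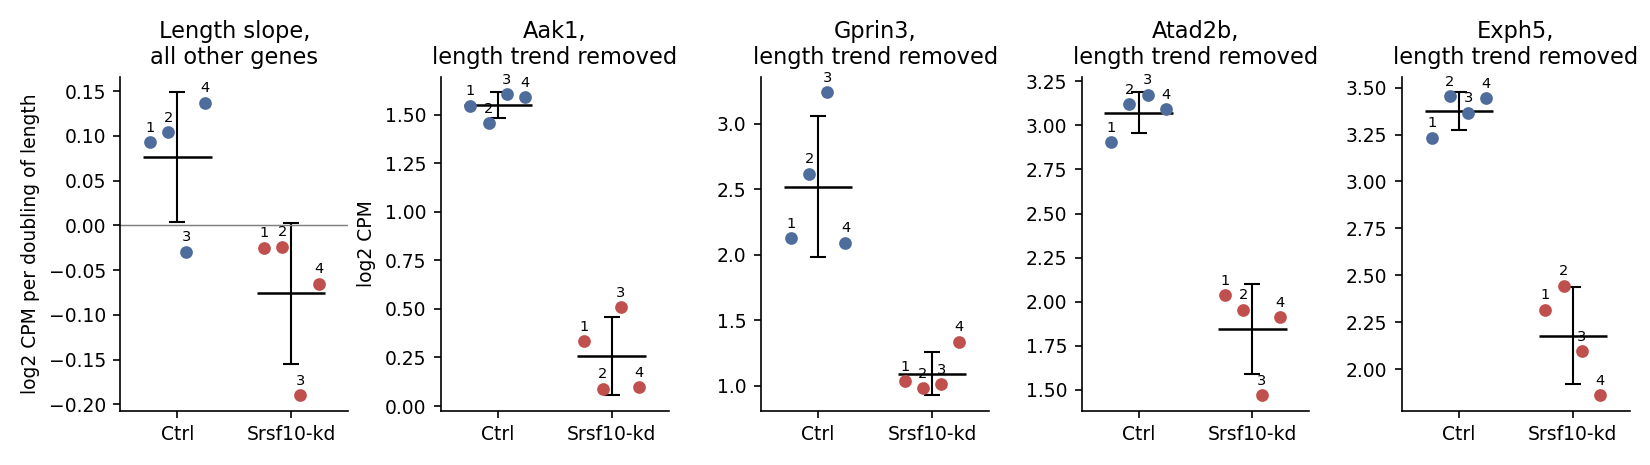
The left panel shows, for each liver, the slope of log2 CPM on log2 transcript length over the other genes, and the remaining panels the log2 CPM of each gene after removing the smoothed length trend of the liver; points are livers with their replicate number, and black lines and bars are means and SD of 4 livers. *Ctrl* 3, at -0.03, lies among the *Srsf10-kd* livers in slope, and the groups in the other panels are separate by the choice of the genes.

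Within the groups the 4 genes did not follow one course. With group means subtracted, Pearson's r over the 8 livers was 0.70 between *Atad2b* and *Exph5*, 0.50 between *Aak1* and *Exph5*, 0.23 between *Aak1* and *Atad2b*, 0.17 between *Gprin3* and *Atad2b*, -0.19 between *Gprin3* and *Exph5* and -0.80 between *Aak1* and *Gprin3*. As measured, r lay between 0.87 and 0.97 for the 6 pairs, which the choice of genes with separate groups fixes. These values are descriptions over 8 livers that share their libraries and the length trend. *Gprin3* differed from the other 3 in the place of 1 liver, *Ctrl* 3, which was the highest *Ctrl* liver for it and the lowest for them. Among the *Srsf10-kd* livers, *Srsf10-kd* 3 was the lowest for both *Gprin3* and *Atad2b*.

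Genes nearest in pattern were sought among 10966 or 10967 genes with a mean log2 CPM of at least 1. As measured, *Aak1* was closest to *Itsn2* (r = 0.99), *Ppara* (0.98, itself at a log2 fold change of -1.24, edgeR adjusted p = 0.0166) and *Prpf4b* (0.98), where *Itsn2* encodes a scaffold of clathrin-coated pits and *Ppara* the nuclear receptor PPARα. *Gprin3* was closest to *Arhgap5*, *Sp1* and *Zfr*, *Atad2b* to *Rapgef6*, *Pdp2* and *Slk*, and *Exph5* to *Spag9*, *Slk* and *Tcf20*. With group means subtracted the nearest genes were *Sec14l1*, *Wasl* and *R3hdm1* for *Aak1*, *Snx2*, *Krit1* and *Zfp386* for *Gprin3*, *Xylt2*, *Poldip3* and *Malt1* for *Atad2b*, and *Slc25a44*, *Tcf20* and *Myo9a* for *Exph5*. The coefficients were from 0.94 to 0.99, and with 8 points drawn from so many genes such values say little by themselves. The members were chosen on separate groups, so their nearest genes as measured are bound to differ between the groups too. Nothing is read from those matches or from what the genes encode.

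None of the neighbouring genes named here passed the adjusted test. Beside *Aak1*, *Anxa4* and *Nfu1* had log2 fold changes of 0.16 (edgeR adjusted p = 0.389) and 0.25 (adjusted p = 0.330). Beside *Gprin3*, *Tigd2* was at 0.23 (adjusted p = 0.300), and beside *Exph5*, *Ddx10* and *Kdelc2* were at 0.05 (adjusted p = 0.787) and -0.06 (adjusted p = 0.774). Next to *Atad2b* the picture differed. *Ubxn2a*, on the opposite strand with 9647 bases between the genes, lay at 27.9 ± 3.99 CPM in the *Srsf10-kd* livers and 42.3 ± 5.04 in the *Ctrl* livers (SD, n = 4 each), a log2 fold change of -0.60 (edgeR adjusted p = 0.113) with separate groups, and *Klhl29* was at -0.48 (adjusted p = 0.555).

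The pathways and families around the 4 proteins gave the wider background, in 4 lists in which 0 genes passed the adjusted edgeR test. Of 48 genes of clathrin endocytosis other than *Aak1*, 43 were tested, with 34 below 0 and 9 above, a median log2 fold change of -0.17 against 0.01 for all genes, and 12 (27.9%) with an unadjusted p under 0.05, 10 of them lower, where 21.8% of all genes had such a p and 10.6% had it and were lower. DESeq2 called 2 of these genes (*Itsn2* and *Ston1*), against 5.21% of all genes, and limma-voom 8, against 11.7%. The median with the length trend removed was -0.04. The kinases most related to AAK1 were at -0.21 for *Bmp2k* (edgeR adjusted p = 0.292), -0.47 for *Gak* (adjusted p = 0.195) and -0.04 for *Stk16* (adjusted p = 0.819).

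At a mean log2 CPM of at least 1 the largest differences among the clathrin genes were those of the stonins *Ston1* (-1.25, edgeR adjusted p = 0.116) and *Ston2* (-0.70, adjusted p = 0.169), adaptors of endocytic cargo, and of *Itsn2*. *Itsn2* lay at 14.0 ± 1.48 CPM in the *Srsf10-kd* livers and 22.6 ± 2.30 in the *Ctrl* livers (SD, n = 4 each), a log2 fold change of -0.70 (edgeR adjusted p = 0.0819). With the length trend removed *Ston1*, *Ston2* and *Itsn2* were at -1.22, -0.38 and -0.46. Below a mean log2 CPM of 1 *Dnm3*, a dynamin gene named after its value was seen, was at 0.77 with separate groups and was called by limma-voom. The AP-2 subunits, whose medium chain AAK1 phosphorylates, had a median of -0.19 over 5 genes. The cargo receptors had a median of -0.51 over 4 genes. With the length trend removed these medians were -0.13 and -0.11. In these sets 0 genes passed the adjusted edgeR test, and 1 and 2 had an unadjusted p under 0.05.

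The Gi/o list held no tested relative of *Gprin3*. *Gprin1* had 0 counts in all 8 livers, which does not show that it is absent, and *Gprin2* had 3 counts. *Gprin3* alone of the family had enough counts to be tested. Of 30 genes of Gi/o signalling 25 were tested, with 9 below 0 and 16 above, a median of 0.09 and 4 (16.0%) with an unadjusted p under 0.05 in edgeR, against 21.8% of all genes. DESeq2 and limma-voom each called 0 of them. At a mean log2 CPM of at least 1 the largest differences were those of *Rgs5* (-0.38) and *Rgs12* (0.37), which encode regulators that speed the shut-off of G proteins, and of the beta subunit gene *Gnb2* (0.32), and below that level *Gpsm3* and *Rgs10*, named after their values were seen, were at 0.52 and 0.50.

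The bromodomain list placed *Atad2b* beside its one close relative. *Atad2* lay at 4.17 ± 0.286 CPM in the *Srsf10-kd* livers and 4.39 ± 0.720 in the *Ctrl* livers (SD, n = 4 each), a log2 fold change of -0.08 (SE 0.15; edgeR adjusted p = 0.770) where that of *Atad2b* was -1.50. Of 39 bromodomain genes 38 were tested, with 24 below 0 and 14 above, a median of -0.08, and 8 (21.1%) with an unadjusted p under 0.05, 7 of them lower, against 21.8% of all genes. DESeq2 called 4 of them, against 5.21% of all genes, and limma-voom 5, against 11.7%. At a mean log2 CPM of at least 1 the largest differences were those of the histone methyltransferase gene *Ash1l* (-0.68, edgeR adjusted p = 0.132), the remodelling factor gene *Cecr2* (-0.66, adjusted p = 0.115) and *Brpf3* (-0.57, adjusted p = 0.217), a scaffold of acetyltransferase complexes. With the length trend removed *Ash1l*, *Cecr2* and *Brpf3* were at -0.30, -0.33 and -0.29, and the median of the list was 0.04. The 4 BET genes were all above 0, with a median of 0.33 and 0 past the adjusted test. Their median with the length trend removed was 0.52.

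The genes around *Exph5* include the GTPases of its pathway. *Rab27a* and *Rab27b*, the GTPases that EXPH5-type effectors bind, had log2 fold changes of 0.00 (edgeR adjusted p = 0.991) and -0.02 (adjusted p = 0.956). The other effectors *Sytl1*, *Sytl2*, *Sytl4*, *Mlph* and *Myrip* were at -0.18, 0.17, -0.10, -0.17 and 0.38, with edgeR adjusted p of 0.515, 0.709, 0.820, 0.554 and 0.437, and *Sytl3* and *Sytl5* had 38 and 22 counts over the 8 livers and were not tested. Of 30 genes of RAB27 secretion 27 were tested, with 15 below 0 and 12 above, a median of -0.02 and 5 (18.5%) with an unadjusted p under 0.05, against 21.8% of all genes. DESeq2 called 0 of them and limma-voom 3, against 11.7% of all genes. At a mean log2 CPM of at least 1 the largest differences were those of *Unc13b* (-0.58, edgeR adjusted p = 0.258), *Rab3gap2* (-0.47, adjusted p = 0.216) and *Rab3gap1* (-0.36, adjusted p = 0.159). With the length trend removed these genes were at -0.15, -0.21 and -0.24, and the median of the list was -0.01. Below a mean log2 CPM of 1 *Rab3b*, named after its value was seen, was at 0.88 (edgeR adjusted p = 0.179), or 0.92 with the trend removed.

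Markers of other liver cell types were compared for the same livers. The 6 cholangiocyte markers summed to 46.9 to 69.2 CPM in the *Srsf10-kd* livers. In the *Ctrl* livers they summed to 31.8 to 39.3 CPM, with no overlap. Each of the 6 was above 0 in log2 fold change, with a median of 0.577, and 0 of the 6 passed the adjusted test. *Krt19* was at 0.73 (edgeR adjusted p = 0.116) and *Spp1* at 0.60. With the length trend removed *Krt19* and *Spp1* were at 0.57 and 0.39, and the median of the 6 was 0.445. The groups were separate with *Srsf10-kd* higher in 2 of the 6 markers, and in 1042 of the 15491 genes tested. The sums of the other lists overlapped between the groups: 161 to 285 against 205 to 292 CPM for 8 Kupffer cell and macrophage markers, 268 to 319 against 294 to 334 for 9 sinusoidal endothelial markers, 249 to 412 against 274 to 301 for 8 stellate cell markers and 7.93 to 10.8 against 9.62 to 13.0 for 7 lymphocyte markers. The part of these cell types in the levels of *Aak1*, *Gprin3*, *Atad2b* and *Exph5* was not tested.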

How the data were processed

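Poly(A)-selected libraries of 8 livers were sequenced, and the deposited table holds whole-number counts of reads per Ensembl gene, made by the authors with STAR 2.7.7a on GRCm38 (mm10) per the labels. The annotation release and the strand column that was counted are not given in the sources used here. The counts were used as deposited, with no normalization by the authors. Depth was 50456404 to 59697241 counts per library.

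The 4 genes and the lists of related and marker genes were chosen with earlier results of these data known. Genes passing edgeR's filter on low counts (15491) were scaled by TMM and tested with edgeR 4.0.16 (R 4.3.3) by the quasi-likelihood test, 4 *Srsf10-kd* against 4 *Ctrl* livers, with Benjamini-Hochberg adjustment at 0.05. The method was also run on simulated counts that held no length trend and no liver set apart from its group. The outcome is not given here and says nothing about those features of the data. DESeq2 1.42.0 and limma-voom (limma 3.58.1) with sample quality weights were alternatives. CPM are TMM-normalized, log2 CPM use a prior count of 2, and fold changes are those of the edgeR fit.

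Gene models came from GENCODE M21, which held 45143 of the 45706 identifiers, and lengths were known for 99.6% of the genes tested. The length trend was a lowess curve (span 0.5) of each liver's deviation from the mean of the 8 livers against log2 transcript length. Named genes were, by rule, the 4 members, their closest relatives, in each list those past the threshold plus the 3 largest changes at a mean log2 CPM of at least 1, the 3 nearest in pattern, the nearest tested gene on each side, up to 3 lowest genes within 1.2-fold of each transcript length, and *Srsf10*. The cholangiocyte markers *Krt19* and *Spp1* were named after their values were seen. One result under this rule is not reported here. Protein and intron sequences were not used here.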

Additional observations from a re-analysis of the deposited data

Results flagged for a closer look

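In 24 measures over both groups (48 groups of 4 livers), a liver was taken to stand far from the others when its gap to the nearest, divided by the range of the group, exceeded Dixon's critical value for 4 samples, and chance alone flags about 1 in 20 groups, or 2.4 here. There were 2 such cases, and neither was 1 of the 4 long-transcript genes. The summed lymphocyte markers were 7.93 CPM in *Srsf10-kd* 4, below the other *Srsf10-kd* livers (gap over range 0.888). *Mlph*, a RAB27 effector gene related by function to *Exph5*, was at 1.08 CPM in *Srsf10-kd* 1, above the other *Srsf10-kd* livers (gap over range 0.861).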

How the results depend on the processing

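The log2 fold changes of *Gprin3*, *Atad2b* and *Exph5* moved by less than the spread between replicates in all 18 alternatives, and that of *Aak1* in 17. Removing the length trend brought *Aak1* to -1.32. The number of genes called depended far more on the processing. Against 11 genes in the edgeR test, DESeq2 called 819, limma-voom with sample weights 1814 and edgeR without a filter on low counts 46. Leaving out 1 liver gave 0 to 544 genes, with the highest number without *Ctrl* 3, 64 without *Srsf10-kd* 3, 4 without *Ctrl* 1 and 5 without *Ctrl* 4, and leaving out both *Ctrl* 3 and *Srsf10-kd* 3, an alternative chosen after the data were seen, gave 1342. The replicate numbers are not stated to mark shared animals or days, and the same-numbered livers did not all deviate together (correlations -0.176, 0.213, 0.265 and 0.217), so they were not taken as pairs; with the replicate number as a block 59 genes were called.

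Of the clathrin genes, none of which was called in the edgeR test, DESeq2 called 2, limma-voom 8, edgeR without a filter 1, edgeR without *Ctrl* 3 and *Srsf10-kd* 3 called 10, and leaving out 1 liver gave 0 to 2 (2 without *Ctrl* 3 and 1 without *Srsf10-kd* 3). Of the bromodomain genes these were 4 by DESeq2, 5 by limma-voom, 9 without both livers and 0 to 3 without 1 liver (3 without *Ctrl* 3). Of the RAB27 genes limma-voom called 3 and edgeR without both livers 2. The Gi/o list had 0 in every alternative run. The block changed none of these 4 counts. Over all genes DESeq2 called 819 of 15730 (5.21%) and limma-voom 1814 of 15491 (11.7%). Of all genes edgeR called 46 without a filter, 1342 without both livers, 544 without *Ctrl* 3 and 64 without *Srsf10-kd* 3. The numbers of genes tested in these edgeR runs, and so the shares called, are not given here. Nothing is therefore read from the counts of the lists in these runs.

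The number of genes of similar length as low as each of the 4 also moved. For *Aak1* (0, around its 19341-base model) it was 0 to 1 when 1 liver was left out, the 1 without *Srsf10-kd* 1. For *Gprin3* (2) it was 7 with DESeq2, 10 without a filter, 1 with at least 10 counts in every liver, 1 by merged exon length, 0 among genes of similar level and 1 to 5 without 1 liver. For *Atad2b* (6) it was 12 with DESeq2, 26 without a filter, 14 within 1.5-fold in length and 3 at similar level. For *Exph5* (10) it was 36 with DESeq2, 4 with limma-voom, 59 without a filter, 24 within 1.5-fold, 5 at similar level, 6 without both livers and 6 to 17 without 1 liver. With the transcripts run to the RefSeq end, also chosen after the data were seen, it was 2 for *Gprin3* and 9 for *Exph5*. The cause of these changes was not tested. *Aak1*, with 1004 counts over the 8 livers, has the least depth behind it, and counts per gene do not show where in a transcript the reads lie.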
